A study of Mus musculus with 12 samples.

Results

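The major histocompatibility complex (MHC) genes and their antigen presentation partners were followed in RNA sequencing of the prostate of male mice whose ancestors had, or had not, been exposed to chlordecone. Chlordecone, also called kepone, is an organochlorine insecticide. Members were the genes whose symbol begins with H2- together with B2m, Tap1, Tap2, Tapbp, Psmb8, Psmb9, Psmb10, Cd74, Ciita and Nlrc5. The rule found 45 genes among the 28075 listed in either generation's table: 44 of 26023 in the F3 table and 38 of 19091 in the F1 table, with 37 in both. Of the 45, 32 serve or resemble class I, 12 serve or resemble class II, and H2-Ke6, which carries the H2- prefix by position, encodes a hydroxysteroid dehydrogenase and no MHC molecule. H2-T-ps was listed under that name in the F1 table alone, and H2-Ea-ps, H2-M9, H2-M10.1, H2-M10.2, H2-Q3, H2-Q5 and H2-Q7 in the F3 table alone.

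The groups were F3 chlordecone (3 libraries), F3 control (3 libraries), F1 chlordecone (3 libraries) and F1 control (2 libraries). Pregnant F0 females of the exposed line received 100 µg/kg/day of chlordecone from E6.5 to E15.5 (days of embryonic development), so that F1 males were exposed in the womb and F3 males descended from them. The labels describe no treatment of the control line and give no strain, no age, no litter and no pooling of animals. The third F1 control of the labels was not analysed here. Because nothing says that libraries came from separate animals or litters, the p-values measure only the spread between these libraries.

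Class I molecules pair a heavy chain (H2-K1, H2-D1 and the H2-Q, H2-T and H2-M families in mice) with beta-2 microglobulin and show peptides from inside the cell to CD8 T cells. The immunoproteasome subunits Psmb8, Psmb9 and Psmb10 cut those peptides, the Tap1 and Tap2 transporter carries them into the endoplasmic reticulum, and tapasin (Tapbp) holds the empty molecule there for loading. Class II molecules pair an alpha with a beta chain (H2-Aa with H2-Ab1, H2-Ea with H2-Eb1), are guided by the invariant chain Cd74, exchange peptides with the help of H2-DM, and are made mainly by dendritic cells, macrophages and B cells. Nlrc5 and Ciita are the transactivators of class I and class II genes, and interferon gamma raises both sets.

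Of the 45 genes, 40 lie on chromosome 17 between 33915899 and 37483552 (GRCm38, GENCODE M21), so they are neighbours and not independent of each other. The other 5 lie on chromosomes 2 (B2m), 8 (Nlrc5 and Psmb10), 16 (Ciita) and 18 (Cd74). Several are close copies. Of all 50-base stretches in the exons of H2-T22, 31.3% also occur in H2-T10. The share found in any other gene was 34.5% for H2-T22, 32.9% for H2-T10, 32.0% for H2-Q6, 26.4% for H2-Q7, 13.6% for H2-T23, 12.8% for H2-D1, 9.63% for H2-K1, 24.8% for H2-DMb2 and 22.7% for H2-DMb1. Counts of these genes are therefore uncertain. No such stretch was shared for B2m, Psmb9, Psmb10, Nlrc5, Cd74, Ciita, H2-Ab1 or H2-Eb1. The strand setting of the counting is not given, and exons overlap a gene on the other strand over 24.9% of their bases in Tapbp, 18.5% in Tap2, 14.7% in Psmb8, 10.4% in H2-DMa, 29.4% in H2-T22 and 27.1% in H2-T10.

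The promoters of 6 members are shown because the results below turn on these genes: B2m and H2-K1 form a class I molecule, Psmb8 and Tapbp had the smallest p-values of all members in F3, and the ratio of H2-Eb1 to H2-Aa set libraries apart. Each sequence is the RefSeq window of 250 bases before to 50 after the annotated start (GRCm38.p6), written 5′ to 3′ along the gene's strand. Capitals mark matches on either strand to the Y box (CCAAT), to the half-site of the X2 box (TGACG), to an interferon response element (GAAA, any 2 bases, GAAA) or to the NF-kB site of the class I enhancer A (4 G, then ATT, then 3 C). The windows lie at chr2:122147437-122147736 (B2m, + strand), chr17:34000298-34000597 (H2-K1, − strand, the first of its 2 windows), chr17:34197945-34198244 (Psmb8, + strand), chr17:33919228-33919527 (Tapbp, + strand), chr17:34287774-34288073 (H2-Aa, − strand) and chr17:34305617-34305916 (H2-Eb1, + strand).
B2m: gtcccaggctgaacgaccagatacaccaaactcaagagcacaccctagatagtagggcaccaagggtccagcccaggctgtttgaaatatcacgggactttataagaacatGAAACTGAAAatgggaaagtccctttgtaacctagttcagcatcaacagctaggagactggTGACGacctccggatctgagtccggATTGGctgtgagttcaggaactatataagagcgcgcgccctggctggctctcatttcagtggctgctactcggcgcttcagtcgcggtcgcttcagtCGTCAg
H2-K1: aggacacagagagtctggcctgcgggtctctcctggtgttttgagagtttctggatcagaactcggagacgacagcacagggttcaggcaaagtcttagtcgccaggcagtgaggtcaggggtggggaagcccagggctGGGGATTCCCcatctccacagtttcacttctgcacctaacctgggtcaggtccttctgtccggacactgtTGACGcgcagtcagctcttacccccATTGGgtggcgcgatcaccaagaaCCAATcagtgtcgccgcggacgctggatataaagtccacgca
Psmb8: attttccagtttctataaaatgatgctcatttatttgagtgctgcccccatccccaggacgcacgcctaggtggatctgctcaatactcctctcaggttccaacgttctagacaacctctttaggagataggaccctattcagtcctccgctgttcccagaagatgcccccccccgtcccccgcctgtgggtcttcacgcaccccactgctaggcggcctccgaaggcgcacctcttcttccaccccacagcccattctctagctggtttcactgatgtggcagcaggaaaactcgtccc
Tapbp: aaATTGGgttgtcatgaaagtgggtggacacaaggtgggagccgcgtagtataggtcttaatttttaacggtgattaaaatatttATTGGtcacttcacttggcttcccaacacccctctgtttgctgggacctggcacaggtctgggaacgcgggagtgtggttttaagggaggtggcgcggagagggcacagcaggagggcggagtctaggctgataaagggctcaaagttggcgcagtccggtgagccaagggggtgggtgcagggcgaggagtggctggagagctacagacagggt
H2-Aa: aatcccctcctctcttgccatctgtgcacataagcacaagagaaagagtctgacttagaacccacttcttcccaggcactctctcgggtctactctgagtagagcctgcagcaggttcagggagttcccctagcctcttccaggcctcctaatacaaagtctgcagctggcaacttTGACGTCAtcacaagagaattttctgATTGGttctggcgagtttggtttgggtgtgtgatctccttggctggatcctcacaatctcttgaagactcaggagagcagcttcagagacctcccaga
H2-Eb1: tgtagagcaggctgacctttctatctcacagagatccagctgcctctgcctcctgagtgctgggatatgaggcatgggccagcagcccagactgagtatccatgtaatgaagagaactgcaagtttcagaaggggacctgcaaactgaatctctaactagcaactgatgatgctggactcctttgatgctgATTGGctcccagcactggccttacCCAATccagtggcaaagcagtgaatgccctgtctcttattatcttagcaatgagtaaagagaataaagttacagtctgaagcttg

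Windows were used for 32 of the 45 genes, 23 of them class I and 8 class II. Windows on chromosome 18, where Cd74 lies, were left out. The Y box letters stood in 18 of the 23 class I and 7 of the 8 class II windows, against 37.4% of all 32851 RefSeq windows. TGACG stood in 11 class I windows and 1 class II window, against 20.8% of all windows, and the interferon response element in 3 class I windows and 0 class II windows, against 3.44%. The NF-kB site stood in 4 class I windows, those of H2-K1, H2-D1, H2-Q6 and H2-Q7, and in 0 class II windows, against 0.107% of all windows. The windows of Psmb8 and Psmb10 held none of the 4 motifs, and that of Tapbp only the Y box letters. These matches describe exact letters in a window and show no binding. Sites that differ from the letters searched, variants of the interferon response element among them, were not counted.

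Library totals ran from 71672418 to 114762135 counts in F3 and from 17228539 to 28061760 counts in F1, so low genes are measured more closely in F3. Levels are CPM (read counts scaled to a common library size with TMM factors), fold changes are chlordecone over control on the log2 scale, and adjusted p means the Benjamini-Hochberg value of edgeR's quasi-likelihood F test over all genes tested in that generation. Prostate epithelium markers, a list of 7 genes, summed to 88873 to 98214 CPM in F3 chlordecone and 93948 to 106833 CPM in F3 control, and to 52412 to 89751 CPM in F1 chlordecone and 86227 to 102230 CPM in F1 control. The F1 libraries also carried 187024, 430207 and 528811 CPM of 7 seminal vesicle markers in chlordecone 1, 2 and 3, against 118447 and 121062 CPM in control 1 and 2. Markers of vas deferens and epididymis summed to 44497, 226 and 14542 CPM in the 3 F1 chlordecone libraries, against 105 and 106 CPM in the F1 controls. In F3 the seminal vesicle sum was 9.91 to 16.4 CPM in chlordecone and 10.5 to 70.2 CPM in control. The part of these tissues in the results below was not tested beyond leaving out single libraries. The difference between the F1 controls was 16.5 in chi-square per gene, against 64.8 to 619 for every other pair within a group. They were kept as 2 samples because the labels list them so.

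In F3 prostate, the class I machinery stood lower in chlordecone than in control males in most of its genes, and no single difference passed the threshold. Psmb8, the catalytic beta5i subunit of the immunoproteasome, averaged 6.95 ± 0.969 CPM in chlordecone and 14.2 ± 3.45 CPM in control (SD, n = 3 each). Tapasin averaged 89.6 ± 7.64 CPM in chlordecone and 137 ± 12.6 CPM in control. H2-D1, the classical heavy chain with the highest level, averaged 450 ± 73.8 CPM in chlordecone and 630 ± 101 CPM in control. The class II genes overlapped between the groups, and Cd74, H2-Aa and H2-Ab1 were high in the same 3 libraries of both groups.

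Of the 31 class I genes in the F3 table, 25 passed the filter on low counts. The other 6, H2-M5, H2-M9, H2-M10.1, H2-M10.2, H2-Q3 and H2-T3, had at most 0.18 CPM in any library. Of the 25, 0 passed an adjusted p of 0.05, as did 0.0596% of all 16766 genes tested. At an unadjusted p under 0.05, 9 of the 25 were lower and 0 higher in chlordecone, against 5.64% and 4.97% of all genes. Chlordecone and control libraries did not overlap for 8 of the 25, all of them lower in chlordecone, against 8.25% of all genes lower and 8.34% higher. DESeq2 called 2 of the 25, Psmb8 and Tapbp, and 1.28% of all genes. The fold change was below 0 for 22 of the 25, with a median of -0.47 and a range of -1.03 to 0.41, against a median of -0.01 over all genes tested. These counts cover only members that passed the filter, and many of the genes are neighbours or copies.

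Among the peptide-cutting subunits, Psmb8 stood at 6.45, 6.33 and 8.06 CPM in chlordecone 1, 2 and 3, against 12.6, 18.1 and 11.8 CPM in control 1, 2 and 3. Every chlordecone library lay below every control library, with a log2 fold change of -1.03 (SE 0.21, adjusted p = 0.270; DESeq2 adjusted p = 0.0013). Psmb10, which encodes the beta2i subunit, stood at 10.8, 9.33 and 13.5 CPM in chlordecone, against 14.9, 23.2 and 17.4 CPM in control, again without overlap (log2 -0.72, SE 0.21, adjusted p = 0.389). Psmb9, the beta1i subunit, stood at 10.2, 10.5 and 13.6 CPM in chlordecone, against 17.3, 20.3 and 13 CPM in control. Here chlordecone 3 reached control 3 (log2 -0.56, SE 0.20, adjusted p = 0.435). Summed, the 3 subunits had 26.2 to 35.2 CPM in chlordecone and 42.3 to 61.6 CPM in control. The subunits they replace, Psmb5, Psmb6 and Psmb7, belong to the list of other class I genes below. Their fold changes in F3 were also below 0, at -0.21 for Psmb5 (adjusted p = 0.620), -0.31 for Psmb6 (adjusted p = 0.467) and -0.15 for Psmb7 (adjusted p = 0.639).

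Among the transport and loading genes, Tapbp stood at 81.9, 89.6 and 97.2 CPM in chlordecone, against 151, 131 and 128 CPM in control. The groups did not overlap (log2 -0.61, SE 0.12, adjusted p = 0.270; DESeq2 adjusted p = 0.0203). Tap2 stood at 29.6, 30.4 and 34.0 CPM in chlordecone, against 40.5, 40.7 and 37.9 CPM in control, also without overlap (log2 -0.34, SE 0.12, adjusted p = 0.421). For its partner Tap1 the values were 16.6, 16.1 and 19.4 CPM in chlordecone, against 25.0, 22 and 18.6 CPM in control. Chlordecone 3 lay above control 3, and the fold change was -0.33 (SE 0.15, adjusted p = 0.485).

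Among the class I molecules, H2-D1 stood at 403, 411 and 535 CPM in chlordecone, against 584, 745 and 559 CPM in control. All chlordecone libraries lay below all controls, although chlordecone 3 came close to control 3 (log2 -0.49, SE 0.17, adjusted p = 0.435). H2-K1, the other classical heavy chain, stood at 86.5, 89.5 and 159 CPM in chlordecone, against 153, 265 and 153 CPM in control. Chlordecone 3 overlapped the controls (log2 -0.77, SE 0.30, adjusted p = 0.455). B2m, the light chain of every class I molecule, averaged 1885 ± 157 CPM in chlordecone and 2173 ± 200.4 CPM in control (SD, n = 3 each), with overlap and an adjusted p of 0.633. Per kilobase of exon, B2m was the highest of the class I genes, at 2192 CPM per kb in chlordecone and 2527 in control. H2-D1 followed at 174 CPM per kb in chlordecone and 244 in control, and H2-K1 at 38.1 in chlordecone and 64.8 in control.

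**Figure D1:**
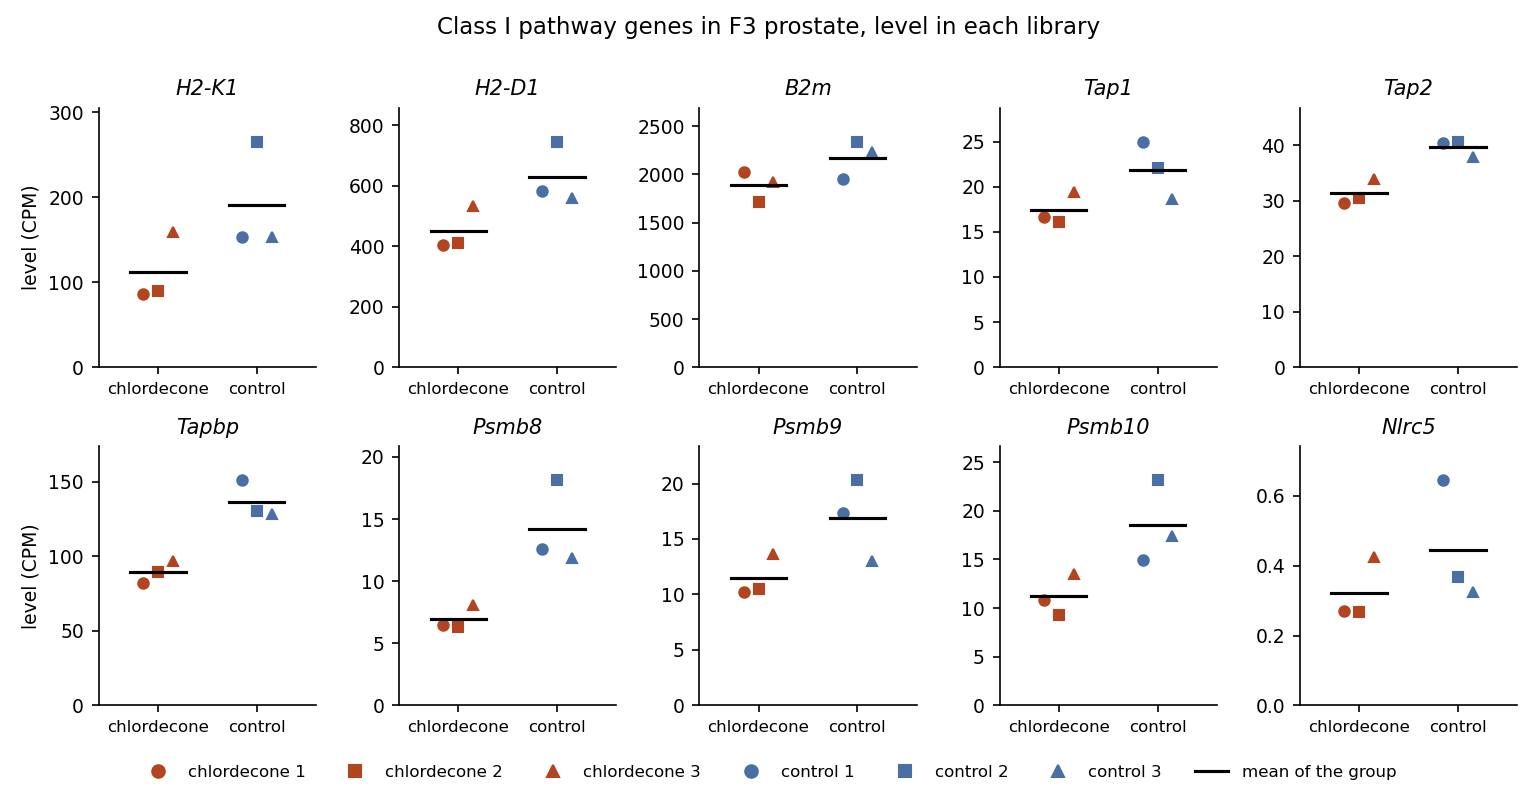
Level (CPM) of 10 class I pathway genes in each F3 library, chlordecone left and control right, with a bar at the mean of each group. Psmb8, Psmb10, Tap2, Tapbp and H2-D1 do not overlap between groups, and chlordecone 3 is the highest chlordecone library for 9 of the genes shown, B2m being the exception.

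The non-classical heavy chains followed a different order of libraries. H2-T23, which encodes the Qa-1 molecule read by natural killer cell receptors, stood at 9.67, 25.7 and 28.9 CPM in chlordecone, against 14.3, 62.2 and 42.0 CPM in control. H2-T22 stood at 5.43, 29.6 and 34.4 CPM in chlordecone, against 6.68, 46.9 and 29.3 CPM in control. H2-T10, the close copy of H2-T22 that the annotation lists as a polymorphic pseudogene, ran the other way, at 18.0, 10.3 and 11.4 CPM in chlordecone, against 27.1, 15.3 and 11.2 CPM in control. Chlordecone 1 and control 1 were the low libraries for H2-T22 and H2-T23 and the high ones for H2-T10. None of the 3 genes separated the groups, with adjusted p of 0.558 for H2-T23, 0.910 for H2-T22 and 0.636 for H2-T10.

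H2-Q4 stood at 20.8, 19.8 and 33.5 CPM in chlordecone, against 27.0, 41.8 and 33.5 CPM in control (log2 -0.47, SE 0.24, adjusted p = 0.512). H2-Q6 had 2.16, 2.73 and 2.54 CPM in chlordecone, against 6.22, 2.33 and 1.75 CPM in control, control 1 being the high library. H2-Q7, which with other Q genes encodes the Qa-2 molecule, had 1.04, 0.616 and 1.41 CPM in chlordecone, against 1.30, 1.73 and 1.32 CPM in control. H2-M3, which shows formylated bacterial peptides, had 4.72, 6.13 and 4.99 CPM in chlordecone, against 5.80, 7.89 and 5.10 CPM in control. These 4 overlapped between groups. Nlrc5 was low throughout, at 0.269, 0.267 and 0.424 CPM in chlordecone, against 0.645, 0.368 and 0.324 CPM in control, and also overlapped. The 3 members with a fold change above 0, H2-M2, H2-Bl and H2-Q5, all stood below 1.1 CPM and overlapped, with adjusted p of 0.814, 0.834 and 0.916.

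Markers of leukocytes were summed as a measure of leukocyte RNA in each library. The 8 pan-leukocyte markers summed to 120, 92.4 and 98.3 CPM in chlordecone 1, 2 and 3, against 256, 193 and 119 CPM in control 1, 2 and 3. Chlordecone 1 reached the level of control 3, and the other chlordecone libraries lay below all controls. Cd52 made up most of that sum and is also made by epididymal epithelium. The other 7 markers, a sum chosen after the values were seen, had 15.8, 11.4 and 27.4 CPM in chlordecone, against 20.6, 29.2 and 20.3 CPM in control. Fold changes of all 8 markers lay below 0, with a median of -0.46 and 1 of them at an unadjusted p under 0.05. The 10 macrophage markers summed to 106 to 121 CPM in chlordecone and 104 to 121 CPM in control, but Mertk, which averaged 75.1 CPM in chlordecone and 59.8 CPM in control, made up most of that sum. Of these 10 markers, 8 had a fold change below 0, with a median of -0.44, and 2, the complement genes C1qa (log2 -0.71) and C1qb (log2 -0.77), had an unadjusted p under 0.05. Their adjusted p-values were 0.457 for C1qa and 0.466 for C1qb. The class I median of -0.47 was near the medians of both lists. Medians of the other leukocyte lists were -0.12 for dendritic cell, 0.13 for B cell and -0.01 for T and NK cell markers. Of the 10 T and NK cell markers, Ncr1 was at 0 in a library, and their sum was 6.82 to 11.6 CPM in chlordecone and 6.15 to 9 CPM in control. Basal epithelium markers summed to 168 to 238 CPM in chlordecone and 137 to 163 CPM in control, and urothelium markers to 172 to 198 CPM in chlordecone and 107 to 121 CPM in control, both without overlap. Of the urothelium markers, Upk1a rose in chlordecone (log2 2.46, SE 0.23, adjusted p = 0.0102) and was 1 of the 10 genes called in F3. The part of cell composition in the class I result was not tested, and in bulk tissue fewer cells of a type and less RNA per cell cannot be told apart.

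In class II, 10 of the 12 genes in the F3 table passed the filter, H2-Eb2 and H2-Oa being too low. Of the 10, 0 passed an adjusted p of 0.05, 0 had an unadjusted p under 0.05, and 0 separated the groups, while DESeq2 called 0. All 10 fold changes were below 0, with a median of -0.27 and a range of -0.89 to -0.09. Without chlordecone 3 the median was -0.79.

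The invariant chain Cd74 stood at 29.9, 30.9 and 63.2 CPM in chlordecone, against 65.8, 58.9 and 28.2 CPM in control. H2-Aa, the alpha chain of I-A, stood at 14.4, 17.2 and 38.9 CPM in chlordecone, against 31.8, 35.8 and 17.4 CPM in control. Its beta chain H2-Ab1 stood at 9.02, 10.6 and 22.5 CPM in chlordecone, against 20.6, 18.9 and 9.50 CPM in control. Chlordecone 3, control 1 and control 2 were the high libraries for all 3 genes, and chlordecone 1, chlordecone 2 and control 3 the low ones. The fold changes were -0.30 for Cd74 (SE 0.37, adjusted p = 0.770), -0.27 for H2-Aa (SE 0.40, adjusted p = 0.810) and -0.22 for H2-Ab1 (SE 0.39, adjusted p = 0.847). The 8 dendritic cell markers summed to 4.75 to 6.07 CPM in chlordecone and 5.61 to 6.85 CPM in control, with Xcr1 and Ccr7 at 0 in a library. The 7 B cell markers summed to 2.99 to 7.32 CPM in chlordecone and 4.31 to 6.75 CPM in control, with Pax5 at 0 in a library.

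The peptide exchange genes were low. H2-DMa stood at 2.02, 1.86 and 2.87 CPM in chlordecone, against 2.53, 3.23 and 2.42 CPM in control. H2-DMb1 stood at 0.638, 0.418 and 1.39 CPM in chlordecone, against 0.994, 2.04 and 1.52 CPM in control (log2 -0.89, SE 0.47, adjusted p = 0.520), and its copy H2-DMb2 at 0.368, 0.465 and 0.840 CPM in chlordecone, against 0.624, 1.41 and 0.706 CPM in control. All 3 overlapped between groups. H2-Ob, part of the H2-O inhibitor of H2-DM, had at most 0.156 CPM in any library, and its partner H2-Oa, which the filter removed, had at most 0.156 CPM as well. The transactivator Ciita had 0.368, 0.290 and 0.443 CPM in chlordecone, against 0.550, 0.127 and 0.515 CPM in control.

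H2-Eb1, the beta chain of I-E, did not follow the other class II genes. It stood at 5.17, 6.08 and 0.745 CPM in chlordecone, against 12.0, 0.806 and 0.440 CPM in control. The ratio of H2-Eb1 to H2-Aa counts was 0.360, 0.353 and 0.0192 in chlordecone 1, 2 and 3, against 0.378, 0.0225 and 0.0252 in control 1, 2 and 3. Chlordecone 1, chlordecone 2 and control 1 thus shared a high ratio, and the other 3 libraries a low ratio. The ratio of H2-Ab1 to H2-Aa, by contrast, stayed between 0.578 and 0.628 in chlordecone and between 0.528 and 0.649 in control. H2-Ea-ps, the alpha chain partner that is a pseudogene in the reference strain, had at most 0.283 CPM in any library.

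**Figure D2:**
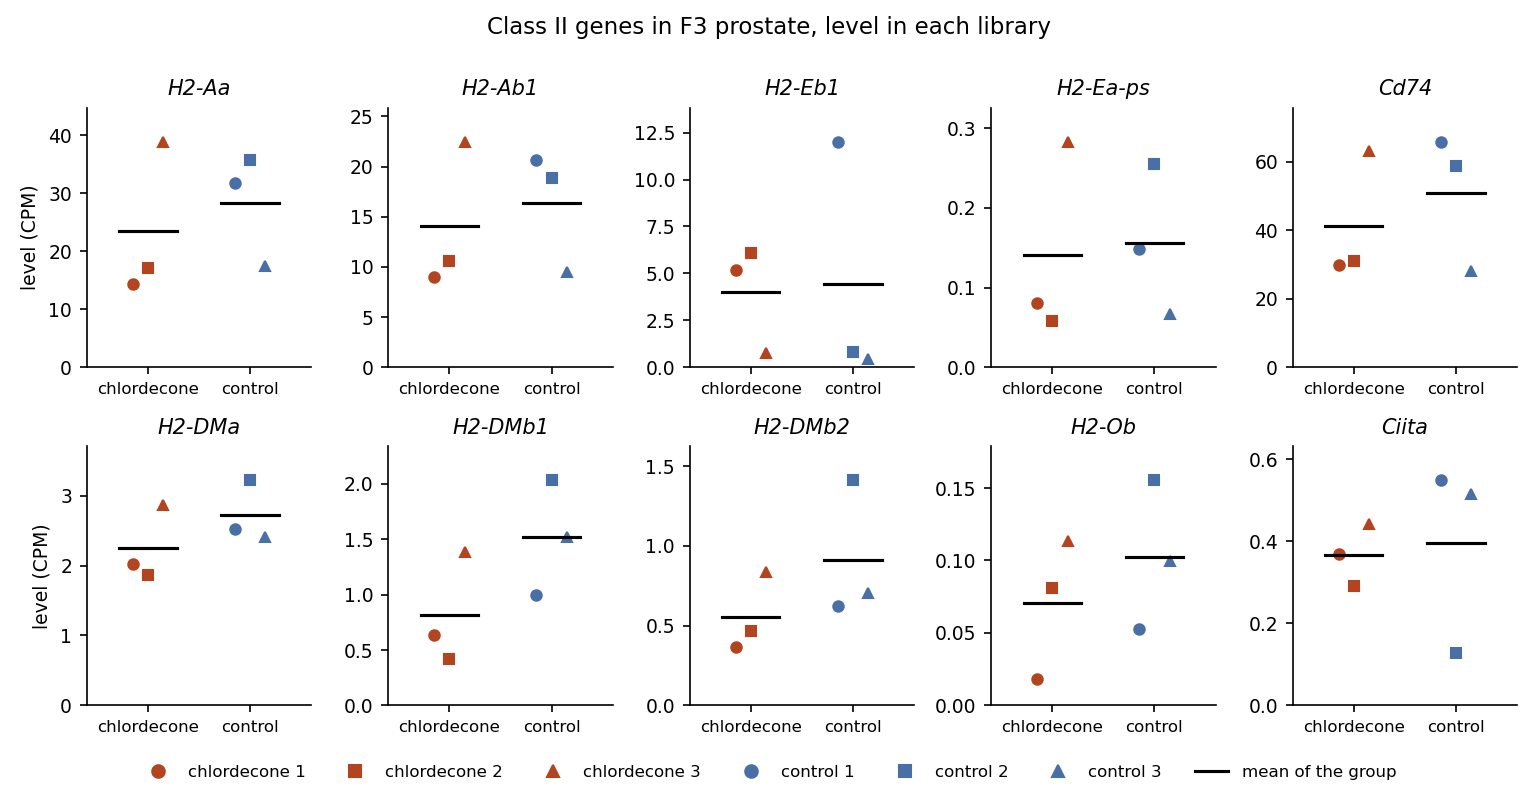
Level (CPM) of 10 class II genes in each F3 library, chlordecone left and control right, with a bar at the mean of each group. Chlordecone 3 sits with control 1 and control 2 for H2-Aa, H2-Ab1 and Cd74, while H2-Eb1 is at 5.17 CPM or more only in chlordecone 1, chlordecone 2 and control 1.

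H2-Ke6 is counted here by its prefix. It had 0.162, 0.163 and 0.132 CPM in F3 chlordecone, against 0.381, 0.240 and 0.589 CPM in F3 control (log2 -1.42, SE 0.44, adjusted p = 0.404). In the F1 table it stood at 60.5, 46.3 and 71.7 CPM in chlordecone, against 63.7 and 61.0 CPM in control. Of its exon bases, 86.4% are shared with the gene model Gm20427 on the same strand, so the assignment of its reads can differ between the tables.

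In F1 prostate, 4 members are described first because DESeq2 called them: Cd74 and H2-Aa of class II, and the T region heavy chains H2-T23 and H2-T10. Cd74 averaged 13.3 ± 4.91 CPM in chlordecone (SD, n = 3) and 2.58 ± 0.391 CPM in control (SD, n = 2), and H2-Aa 16.7 ± 5.03 CPM in chlordecone and 5.56 ± 0.821 CPM in control. H2-T23 averaged 56.1 ± 42.0 CPM in chlordecone and 3.31 ± 1.70 CPM in control, while H2-T10 averaged 1.35 ± 0.315 CPM in chlordecone and 14.2 ± 3.15 CPM in control. None of the 4 passed the threshold of edgeR's test, and other members whose groups did not overlap, Psmb8 among them, are given below.

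The filter kept 25 of the 26 class I genes listed for F1 and left out H2-M2. Of the 25, 0 passed an adjusted p of 0.05, as did 0.0281% of all 17804 genes tested. At an unadjusted p under 0.05, 3 were higher and 1 lower in chlordecone, against 7.93% and 3.6% of all genes. Groups did not overlap for 5 genes higher and 2 lower in chlordecone, against 16.2% and 15.1% of all genes, so these counts lie near the background. DESeq2 called 2 of the 25, H2-T10 and H2-T23, and 3.89% of all genes. The fold change was above 0 for 17 of the 25, with a median of 0.32, against 0.02 over all genes tested. Without chlordecone 3 it was 0.0919. That median was the same with H2-T24, which had no counts in either control, at its lower bound.

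H2-T10 stood at 1.07, 1.69 and 1.29 CPM in chlordecone, against 11.9 and 16.4 CPM in control. The groups did not overlap, and the log2 fold change was -3.39 (SE 0.44, adjusted p = 0.0629; DESeq2 adjusted p = 9.46e-09). H2-T23 stood at 68.6, 9.38 and 90.5 CPM in chlordecone, against 4.51 and 2.11 CPM in control. Chlordecone 2 was far below the other chlordecone libraries but above both controls (log2 4.09, SE 0.93, adjusted p = 0.201; DESeq2 adjusted p = 9.09e-06). The libraries with the high H2-T23 levels, chlordecone 1 and 3, were also those with 44497 and 14542 CPM of vas deferens and epididymis markers. H2-T22 stood at 1.23, 1.64 and 1.20 CPM in chlordecone, against 0.681 and 0.656 CPM in control (log2 1.01, SE 1, adjusted p = 0.760). H2-T24, another heavy chain of the T region, had 40, 3 and 19 counts in chlordecone and 0 counts in both controls. Its mean of 0.874 CPM in chlordecone was at least 5.87-fold higher than a floor of 3 counts per control library, which covers counting error only.

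Among the peptide-cutting subunits, Psmb8 stood at 9.82, 7.36 and 16 CPM in F1 chlordecone, against 5.03 and 3.84 CPM in F1 control. Every chlordecone library lay above both controls (log2 1.32, SE 0.46, adjusted p = 0.332). Psmb9 stood at 10.2, 4.31 and 13.6 CPM in chlordecone, against 7.18 and 11.7 CPM in control, and Psmb10 at 12.9, 12.4 and 14.3 CPM in chlordecone, against 9.01 and 14.7 CPM in control. Both overlapped, with adjusted p of 0.998 for Psmb9 and 0.907 for Psmb10. The direction of both changed sign when single libraries were left out.

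Most of the other class I genes overlapped between the F1 groups. Tap1 stood at 6.45, 8.34 and 9.80 CPM in chlordecone, against 6.65 and 9.61 CPM in control, Tap2 at 10.5, 5.29 and 12.6 CPM in chlordecone, against 7.39 and 7.73 CPM in control, and Tapbp at 68.9, 40.0 and 60.0 CPM in chlordecone, against 41.2 and 37.5 CPM in control. Chlordecone 2 was the lowest chlordecone library for Tap2 and Tapbp, as it was for H2-K1, H2-D1 and B2m. H2-K1 stood at 89.6, 45.2 and 123 CPM in chlordecone, against 55.1 and 55.6 CPM in control. H2-D1 stood at 109, 71.3 and 143 CPM in chlordecone, against 104 and 94.5 CPM in control, and B2m averaged 1285 ± 366 CPM in chlordecone and 955 ± 154 CPM in control. Adjusted p-values ran from 0.571 for Tapbp to 0.995 for Tap1. H2-Q4 stood at 15.7, 16.6 and 28.5 CPM in chlordecone, against 18.2 and 19.0 CPM in control. H2-M3 had 2.1, 2.67 and 5.52 CPM in chlordecone, against 2.31 and 7.26 CPM in control. H2-Q6, Nlrc5 and H2-Bl had at most 1.52 CPM in any F1 library, and of these H2-Bl was lower in every chlordecone library than in either control (log2 -2.09, SE 1.44, adjusted p = 0.640). H2-Q1, at 1.11, 3.38 and 1.47 CPM in chlordecone, against 0.314 and 1.03 CPM in control, was higher in every chlordecone library (adjusted p = 0.628).

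In class II, 10 of the 11 genes in the F1 table passed the filter, H2-Eb2 being too low, and 0 passed an adjusted p of 0.05. At an unadjusted p under 0.05, 3 of the 10 were higher in chlordecone (Cd74, H2-Aa and H2-DMa) and 0 lower, against 7.93% of all genes higher and 3.6% lower. Groups did not overlap for these 3 and for H2-Eb1, which was lower, against the 16.2% of all genes higher and 15.1% lower given above. DESeq2 called 2, Cd74 and H2-Aa, and 3.89% of all genes. The median fold change of the 10 was 0.65, with 8 above 0 and a range of -1.23 to 2.36. Among genes with a mean of at least 1 CPM it was 1.56.

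Cd74 stood at 11.9, 9.22 and 18.7 CPM in chlordecone, against 2.31 and 2.86 CPM in control (log2 2.36, SE 0.45, adjusted p = 0.169; DESeq2 adjusted p = 0.000391). H2-Aa stood at 17.2, 11.4 and 21.4 CPM in chlordecone, against 4.98 and 6.14 CPM in control (log2 1.58, SE 0.38, adjusted p = 0.213; DESeq2 adjusted p = 0.0153). Both genes were above both controls in all 3 chlordecone libraries. H2-Ab1, which in F3 kept a narrow ratio to H2-Aa, stood at 17.4, 5.34 and 23.5 CPM in chlordecone, against 4.93 and 10.3 CPM in control, and chlordecone 2 lay between the controls (adjusted p = 0.592). H2-DMa stood at 3.05, 3.71 and 2.26 CPM in chlordecone, against 0.786 and 0.515 CPM in control (log2 2.2, SE 0.78, adjusted p = 0.344). H2-DMb1 and H2-DMb2 had at most 3.27 CPM and overlapped, and H2-Oa, H2-Ob and Ciita had at most 1.29 CPM and overlapped.

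**Figure D3:**
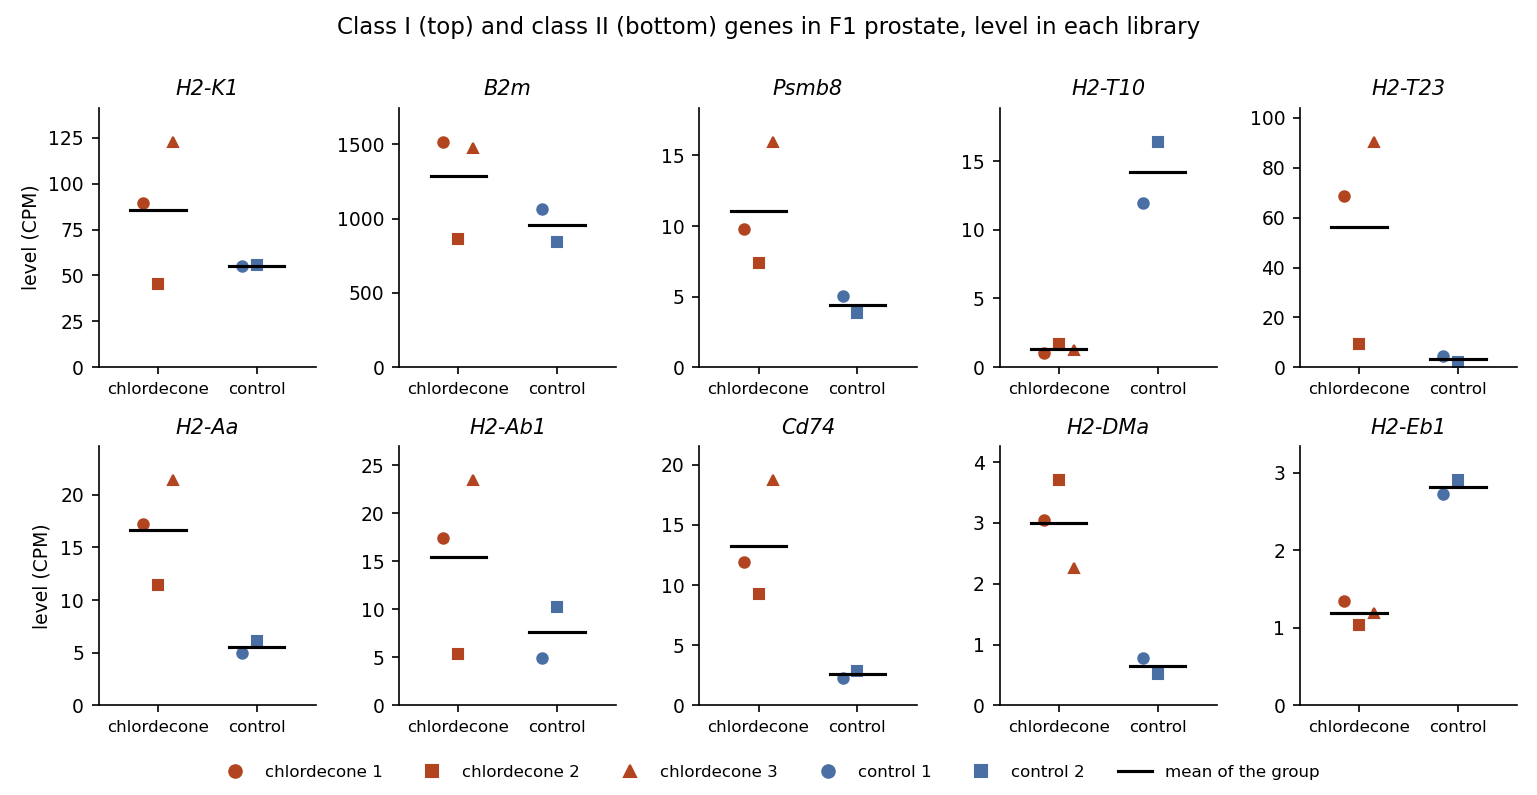
Level (CPM) of 5 class I genes (top) and 5 class II genes (bottom) in each F1 library, chlordecone left and control right, with a bar at the mean of each group. H2-T10 and H2-Eb1 are lower and Psmb8, H2-T23, H2-Aa, Cd74 and H2-DMa higher in all 3 chlordecone libraries than in both controls, while H2-K1, B2m and H2-Ab1 overlap.

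H2-Eb1 stood at 1.35, 1.04 and 1.20 CPM in F1 chlordecone, against 2.72 and 2.91 CPM in F1 control (log2 -1.23, SE 0.72, adjusted p = 0.574). Its ratio to H2-Aa counts was 0.0782, 0.0909 and 0.0559 in chlordecone, against 0.547 and 0.473 in control. The ratio of H2-T10 to H2-T23 counts was 0.0156, 0.180 and 0.0142 in F1 chlordecone, against 2.65 and 7.78 in F1 control. In F1 both ratios therefore separated the groups. In F3 neither did: H2-T10 to H2-T23 was 1.86, 0.400 and 0.396 in chlordecone 1, 2 and 3, against 1.89, 0.247 and 0.267 in control 1, 2 and 3. The annotation is that of the C57BL/6J reference, these genes differ in sequence and expression between mouse MHC haplotypes, and whether the libraries carried the same haplotype was not tested.

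**Figure D4:**
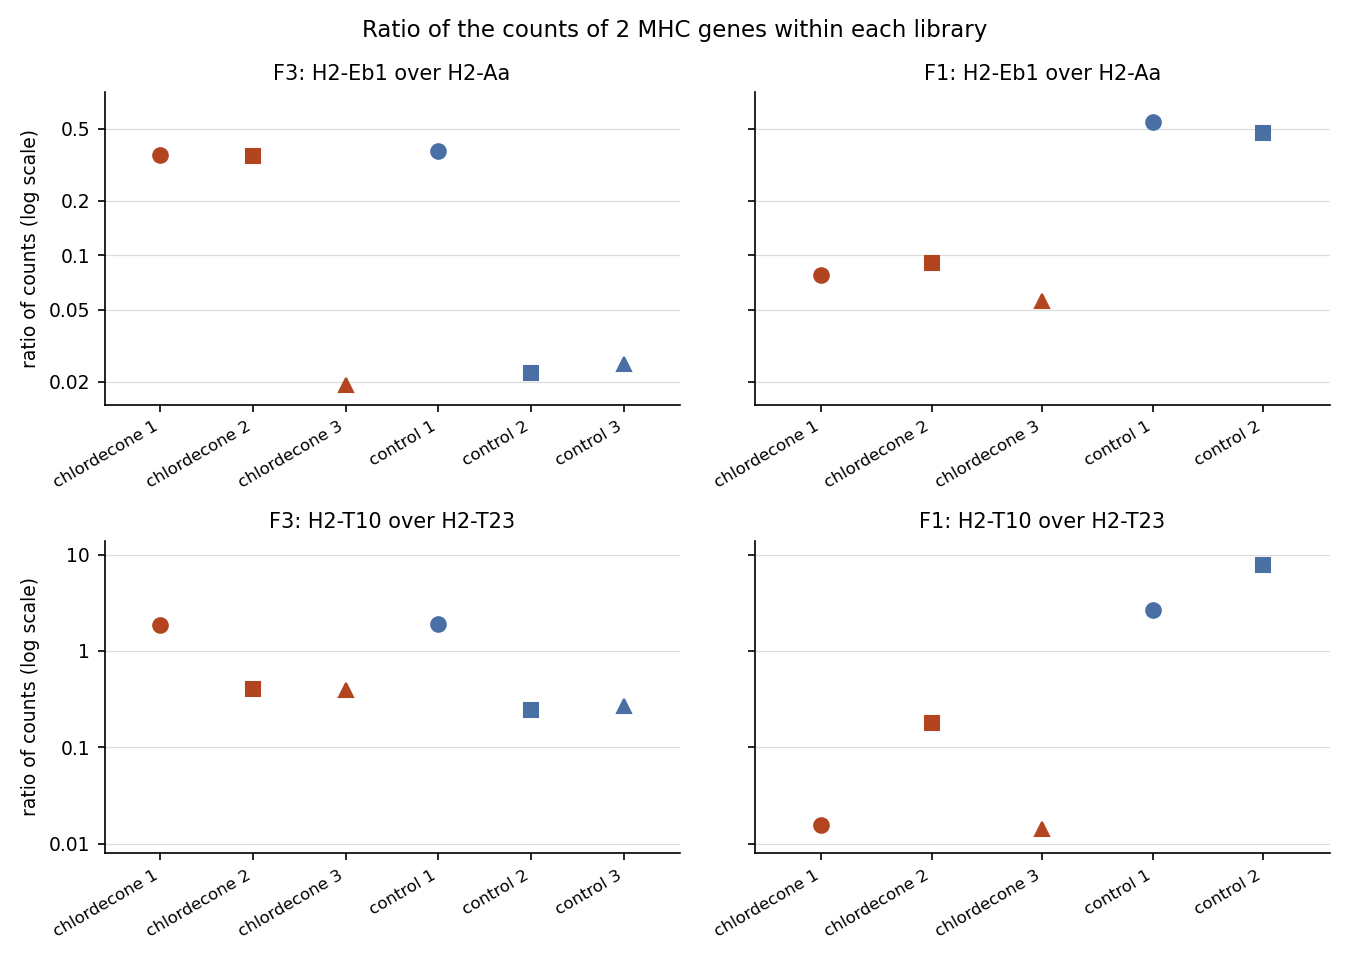
Ratio of H2-Eb1 to H2-Aa counts (top) and of H2-T10 to H2-T23 counts (bottom) in each library, on log axes, with F3 left and F1 right and chlordecone libraries left of controls. Libraries fall at high and low values across both groups in F3, and by group in F1. The 2 ratios do not split the F3 libraries alike. Chlordecone 2 is high for H2-Eb1 to H2-Aa (0.353) and low for H2-T10 to H2-T23 (0.400).

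Marker sums in F1 were as follows. The 8 pan-leukocyte markers summed to 1309, 128 and 656 CPM in chlordecone, against 103 and 85.0 CPM in control, of which Cd52 gave 1292, 112 and 611 CPM in chlordecone, against 88.9 and 71.6 CPM in control. The other 7 summed to 17.4, 15.3 and 44.8 CPM in chlordecone, against 14.3 and 13.4 CPM in control. All 8 had a fold change above 0, with a median of 1.23. Macrophage markers summed to 75.3 to 116 CPM in chlordecone and 120 to 124 CPM in control, a sum in which Mertk alone averaged 48.8 CPM in chlordecone and 90.9 CPM in control. Yet 7 of the 10 macrophage markers had a fold change above 0, with a median of 0.24, among them C1qa (log2 1.53, adjusted p = 0.304) and C1qc (log2 2.57, adjusted p = 0.280; DESeq2 adjusted p = 0.0308). The dendritic cell markers summed to 4.83 to 10.6 CPM in chlordecone and 10.9 to 13.2 CPM in control, with a fold change below 0 for all 6 tested. The B cell markers in the table summed to 4.75 to 11.5 CPM in chlordecone and 1.87 to 2.57 CPM in control, but Cd79a and Cd79b were at 0 in a library. Fcer1g of the pan-leukocyte list, Cd68 of the macrophage list and Itgax of the dendritic cell list were each also at 0 in a library. Some markers of other tissue also stood apart in F1. Stroma and endothelium markers summed to 2442 to 4405 CPM in chlordecone and 1661 to 1802 CPM in control, basal epithelium markers to 59.0 to 89.2 CPM in chlordecone and 28.7 to 40.7 CPM in control, and adipose markers to 61.3 to 257 CPM in chlordecone and 19.4 to 26.2 CPM in control. None of the 3 sums overlapped. Of the 10 stroma and endothelium markers, 7 had a fold change above 0. The other 3, the endothelial genes Pecam1 (log2 -0.46), Cdh5 (log2 -0.30) and Kdr (log2 -0.42), had one below 0. Urothelium markers did overlap, at 14.2 to 66.8 CPM in chlordecone and 20.9 to 28.5 CPM in control. So did T and NK cell markers, at 6.49 to 19.0 CPM in chlordecone and 7.86 to 7.87 CPM in control. DESeq2 called the smooth muscle gene Myh11 (adjusted p = 1.18e-05) and the adipocyte gene Cfd (adjusted p = 2.6e-06), while edgeR gave adjusted p of 0.170 for Myh11 and 0.159 for Cfd. The part of these cells and tissues in the class I and class II values was not tested.

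The difference between generations was tested as F3 minus F1 in a single fit of all 11 libraries over the 16980 genes kept from both tables. Of 37 members, 2 passed an adjusted p of 0.05, against 0.718% of all genes. DESeq2 called 8 members, against 6.9% of all genes. The 2 members called were H2-T10 and Psmb8.

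For Psmb8 the fold change of chlordecone over control was -1.03 in F3 and 1.32 in F1, a difference of -2.28 (SE 0.46, adjusted p = 0.0444). All 3 chlordecone libraries lay below all controls in F3 and above both controls in F1. For H2-T10 the fold change was -0.43 in F3 and -3.39 in F1, a difference of 3.02 (SE 0.54, adjusted p = 0.0261). Both calls depended on single libraries. That of Psmb8 was lost when any library other than F1 chlordecone 2 was left out (adjusted p of 0.00368 to 0.136 over the fits without 1 library), and that of H2-T10 was lost without either F1 control, F1 chlordecone 3, F3 control 2 or any F3 chlordecone library (0.00407 to 0.0927). With the replicate number as a block 0 members were called.

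The other 6 members that DESeq2 called missed the threshold of edgeR's test. The differences were -4.89 for H2-T23 (SE 1.11) and -2.61 for Cd74 (SE 0.59), both with an adjusted p of 0.0606, -2.42 for H2-DMa (SE 0.62, adjusted p = 0.0808), -1.06 for Tapbp (SE 0.30, adjusted p = 0.101) and -1.80 for H2-Aa (SE 0.58, adjusted p = 0.135). H2-T24, with no counts in the F1 controls, had an adjusted p of 0.0638. Tapbp, for example, had a fold change of -0.61 in F3 and 0.52 in F1, and Cd74 one of -0.30 in F3 and 2.36 in F1. Without F1 chlordecone 2 the members called numbered 11 for the difference, where 2320 of all 16859 genes were called, and 10 within F1, where 2604 of all 17394 genes were called.

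**Figure D5:**
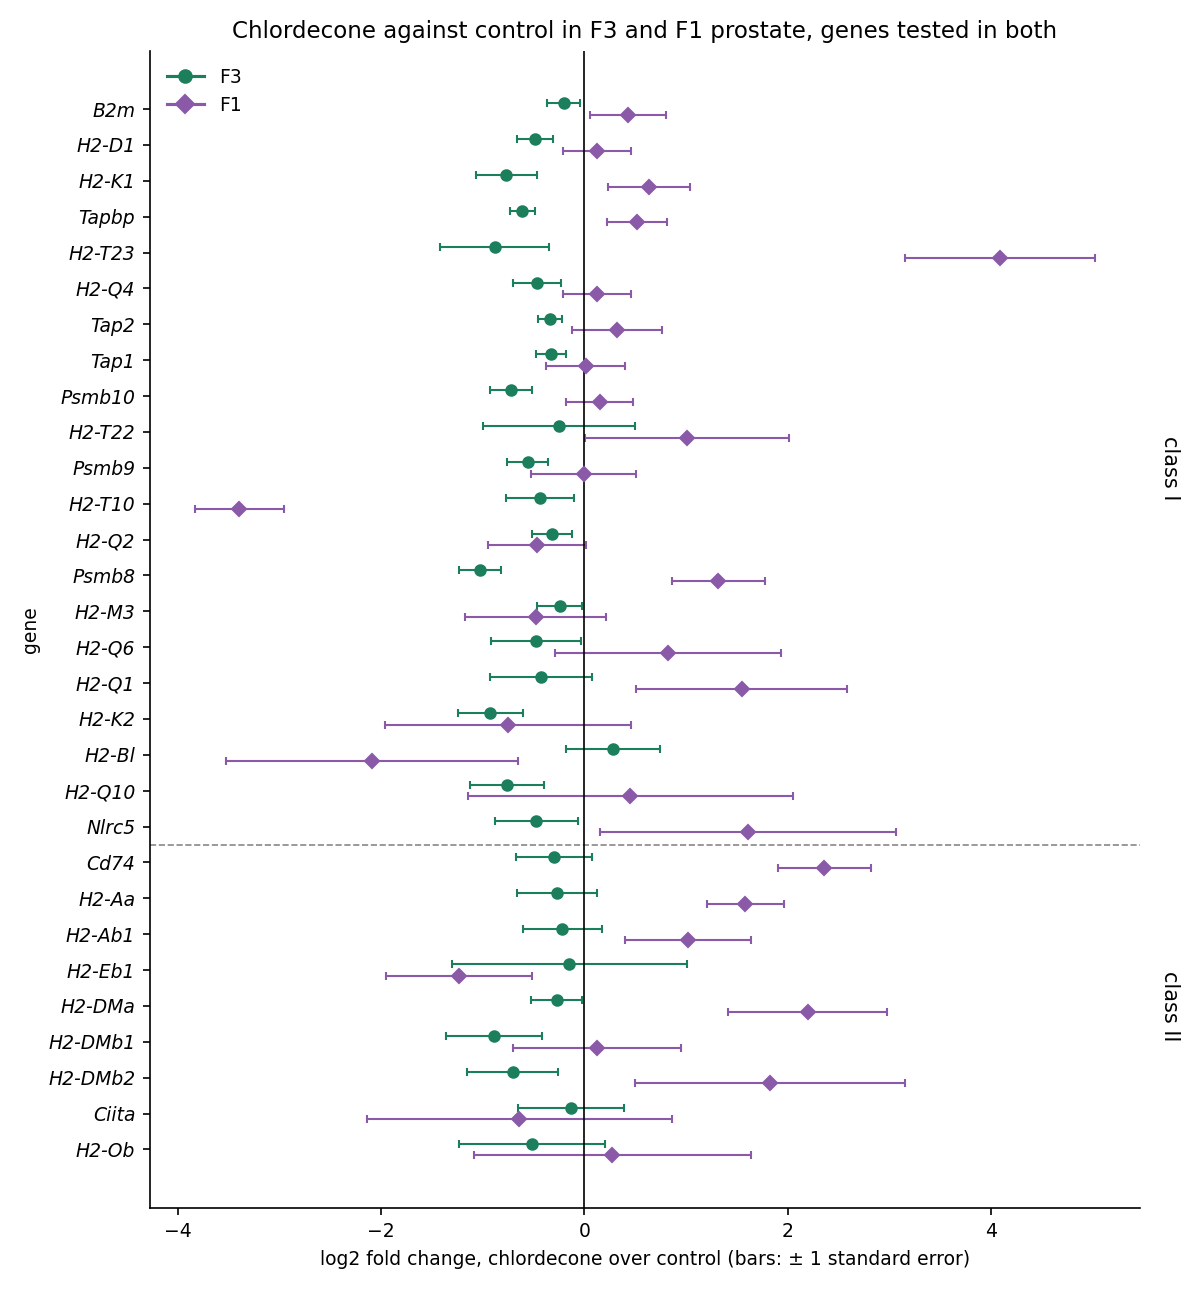
Log2 fold change of chlordecone over control, with bars of 1 standard error, for the 30 class I and class II genes tested in both generations other than H2-T24, F3 as circles and F1 as diamonds, ordered by mean level within each class. Psmb8 lies at -1.03 in F3 and 1.32 in F1, and H2-T10 at -0.43 in F3 and -3.39 in F1.

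Other genes of the 2 pathways were read from lists that are no members. Of 13 further genes of class I peptide supply and loading, 0 passed an adjusted p of 0.05 in F3, where 5 were higher, 8 lower and the median fold change was -0.10. The proteasome activator subunits Psme1 and Psme2, which interferon gamma raises, had the smallest p-values. Psme1 stood at 52.6, 49.3 and 58.4 CPM in chlordecone, against 76.1, 85.6 and 76.2 CPM in control, with no overlap (log2 -0.57, SE 0.12, adjusted p = 0.286; DESeq2 adjusted p = 0.0283). Psme2 stood at 57.5, 55.5 and 66.2 CPM in chlordecone, against 92.0, 98.5 and 70.8 CPM in control (log2 -0.54, SE 0.15, adjusted p = 0.381). The aminopeptidase Lnpep averaged 15.7 ± 4.25 CPM in chlordecone and 9.77 ± 3.14 CPM in control (SD, n = 3 each, adjusted p = 0.457). In F1, 0 of the 13 passed, with 7 higher, 6 lower and a median of 0.07, and the smallest adjusted p was 0.511, for the chaperone Hspa5.

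Of the class II processing and membrane partners, 11 were measured in each generation and 0 passed. In F3, 2 were higher and 9 lower with a median of -0.30, and the protease Lgmn had the smallest p (log2 -0.43, SE 0.15, adjusted p = 0.431). In F1, 9 were higher and 2 lower with a median of 0.42. The lysosomal protease Ctsb, the gene with the smallest p there, stood at 211, 80.0 and 219 CPM in F1 chlordecone, against 69.2 and 71.6 CPM in F1 control (log2 1.27, SE 0.45, adjusted p = 0.337).

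Of 17 regulators of MHC transcription, 0 passed in either generation, with a median of -0.03 in F3 and 0.06 in F1. The interferon gamma receptor chain Ifngr1 stood at 126, 138 and 163 CPM in F3 chlordecone, against 90.3, 102 and 100.2 CPM in F3 control (log2 0.55, SE 0.13, adjusted p = 0.330), and at 47.8, 26.4 and 50.2 CPM in F1 chlordecone, against 66.9 and 80.3 CPM in F1 control (log2 -0.83, SE 0.32, adjusted p = 0.388). Its groups did not overlap in either generation.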

How the data were processed

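Prostate poly-A RNA was sequenced from stranded libraries, per the labels' protocols. For each generation the authors deposited raw counts of reads (whole numbers, not normalized) for each Ensembl gene identifier, and 5 F1 and 6 F3 columns were used. K in a column name was read as chlordecone (kepone) and C as control, which left 0 count columns without a sample. The submitters' processing notes name HTSeq 0.6.1, DESeq2 1.6.3, Bowtie2 2.1.0, TopHat2 2.0.14 and bcl2fastq 2.17.1.14, and the build mm10. The strand setting and the annotation release are not stated there. Of F1 identifiers matched to GENCODE M21, 2.11% had the same start and end, and of F3 identifiers 78.9%, so coordinates are those of the annotation. The lowest total count of a gene was 20 in the F1 table and 1 in the F3 table. The tables were therefore made differently, and levels set across them are descriptions.

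The test of these counts was that of edgeR 4.0.16 under R 4.3.3 (filterByExpr with minimum count 10 and minimum total 15, TMM, quasi-likelihood F test, two-sided, Benjamini-Hochberg threshold 0.05), within each generation and for the difference between generations over the genes in both tables. The steps were tested on simulated data. Alternatives were a block for the replicate number, leaving out each library in turn, fitting all libraries together, DESeq2 1.42.0, its size factors within edgeR, a filter at a mean of 1 CPM, and no filter. Shared sequence was counted as 50-base stretches of exons found in other genes.

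Core genes of both pathways were named in full, as were members past the threshold and, per generation, the 3 higher and 3 lower members with the smallest p. H2-T24, H2-Q1 and H2-Ke6 were named after their values were seen. Of the pathway lists, genes with the smallest p were named. Some list genes are not reported here. Members and lists were chosen with earlier results of these data known, so counts over them are descriptions. Deviations of same-numbered libraries had correlations of 0.0483 and 0.0583 in F1 and of 0.131, 0.00179 and 0.00191 in F3. The F3 values lay within the range for different numbers, -0.22 to 0.206. In F1 the deviations of the 2 controls mirror each other, so the check says little there. Numbers were not taken as pairs.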

Additional observations from a re-analysis of the deposited data

Results flagged for a closer look

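The fold change of Psmb8 differed between generations, by -2.28 on the log2 scale for F3 minus F1 in edgeR's interaction test (adjusted p = 0.0444). Chlordecone libraries were lower than controls in 3 of 3 F3 libraries and higher in 3 of 3 F1 libraries. H2-T10 also differed, by 3.02 (adjusted p = 0.0261). In F1 it was lower in 3 of 3 chlordecone libraries, while the F3 groups overlapped. The calls of Psmb8 and H2-T10 depended on single libraries and were lost with the replicate number as a block. H2-T10 shares 31.7% of its 50-base stretches with H2-T22. Its ratio to H2-T23 counts was 1.86 in F3 chlordecone 1, 1.89 in F3 control 1 and 0.247 to 0.400 in the other F3 libraries. In F1 that ratio was 2.65 and 7.78 in the controls and 0.0142 to 0.180 in chlordecone. The part of allele differences in the H2-T10 result was not tested.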

How the results depend on the processing

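Of 515 values of single members under the alternatives, 441 kept their direction and side of the threshold and 37, from 18 results, changed sign. Members called in F1 numbered 0 in the main analysis, 1 with no filter, 4 by DESeq2, 3 with the replicate block, 6 in 1 fit of all libraries, and 0 to 10 with single libraries left out, the 10 without chlordecone 2. In F3 they numbered 0, 2 by DESeq2 and 0 without any single library. For the difference between generations they numbered 2, 8 by DESeq2, 0 with the replicate block and 0 to 11 with single libraries left out, the 11 without F1 chlordecone 2. In F1 all genes called numbered 5, against 322 with the block, 21 with no filter, 930 in 1 fit of all libraries and 2604 without chlordecone 2, and in F3 10, against 8 with the block, 38 with no filter and 41 without control 1. For the difference they numbered 122, against 25 with the block and 2320 without F1 chlordecone 2. The cause was not tested.

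The median fold change of class II members in F1 was 1.56 with a mean of at least 1 CPM, which leaves fewer genes, and 0.37 to 1.26 with single libraries left out, the lowest without control 2 and the highest without control 1. In F3 it was -0.79 to -0.12 with single libraries left out, the extremes being without chlordecone 3 and without chlordecone 1. The class I median in F1 was 0.13 with a mean of at least 1 CPM, 0.13 with the replicate block and 0.0919 to 0.43 with single libraries left out, the lowest without chlordecone 3. In F3 the class I median was -0.64 to -0.36 with single libraries left out.

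With the replicate block the fold change had the other sign for H2-D1 (-0.17), H2-DMb1 (-0.44), H2-Ob (-0.42), H2-Q4 (-0.21), Tap1 (-0.12) and Tap2 (-0.0164) in F1 and for Ciita (0.0414) and H2-Eb1 (0.76) in F3. In F1, leaving out single libraries gave -0.13 to 0.34 for H2-D1, -0.41 to 0.58 for H2-DMb1, -1.07 to 0.58 for H2-M3, -0.84 to 6.52 for H2-Oa, -0.30 to 1.26 for H2-Ob, -0.21 to 0.27 for H2-Q4, -0.15 to 0.56 for Psmb10, -0.37 to 0.39 for Psmb9 and -0.22 to 0.31 for Tap1. In F3 it gave -0.54 to 0.16 for Ciita, -0.73 to 0.0202 for H2-Ab1, -0.0656 to 0.80 for H2-Bl, -1.11 to 0.41 for H2-Ea-ps, -0.69 to 2.70 for H2-Eb1, -0.33 to 0.62 for H2-Q5, -0.79 to 0.28 for H2-Q6 and -0.71 to 0.36 for H2-T22. None of these passed the threshold in the main analysis.

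Fits without an F1 control assume that the lone control varies like the other libraries. F1 depth limits members under about 1 CPM. Of the members listed in both generations, H2-M2, H2-M5, H2-Eb2, H2-Oa and H2-T3 were each tested in fewer than both. Close copies limit the H2-Q, H2-T and H2-DMb genes.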

Other observations

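Per kilobase of exon, Cd74 was the highest of the 3 main class II genes in every group other than F1 control, and H2-Aa stood above H2-Ab1 in F3 and below it in F1. In F3, Cd74 had 24.6 CPM per kb in chlordecone and 30.3 in control, H2-Aa 6.19 in chlordecone and 7.46 in control, and H2-Ab1 5.47 in chlordecone and 6.37 in control. In F1, Cd74 had 7.91 CPM per kb in chlordecone and 1.54 in control, H2-Aa 4.39 in chlordecone and 1.46 in control, and H2-Ab1 6 in chlordecone and 2.96 in control. The ratio of H2-K1 to H2-D1 counts was 0.215, 0.218 and 0.298 in F3 chlordecone, against 0.262, 0.356 and 0.273 in F3 control. It was 0.821, 0.634 and 0.858 in F1 chlordecone, against 0.531 and 0.588 in F1 control. Across the tables these levels are descriptions only.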
